A study of Ovis aries with 12 samples.

Results

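The enzymes described here are those that split glucose and glycogen in muscle: hexokinase 1 (HK1), the muscle and liver forms of phosphofructokinase (PFKM and PFKL), aldolase A (ALDOA), glyceraldehyde-3-phosphate dehydrogenase (GAPDH), the muscle enolase (ENO3), lactate dehydrogenase A (LDHA) and muscle glycogen phosphorylase (PYGM). Probes were taken where the array's own gene name or sheep RefSeq record gave 1 of these 8 genes. This gave all 8 genes, of 854 with a name on the array, and 13 probes of 15008: 2 each for PFKM, ALDOA, GAPDH, ENO3 and LDHA and 1 each for HK1, PFKL and PYGM. ENO3 was reached through its gene number, and PFKM and PFKL through the array's own text for those probes. All 13 gave a signal well above background on all 12 arrays, so none was lost to the filter on dim probes, which left 10734 probes tested.

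The study measured RNA of the fetal biceps femoris, a hind limb muscle, in sheep (Ovis aries) near term. The labels name 6 control and 6 cortisol samples at 140 days of gestation, with 1 array for each. Ewes with a single fetus received vehicle or cortisol (Solu-Cortef, 1 mg/kg/day) by infusion that began on day 115 and lasted to tissue collection between days 139 and 144, soon after labour set in. The labels count 7 ewes in each arm. The hormone was given to the mother, so these are fetal muscles of treated or untreated ewes, all collected after labour had begun. The labels give the muscle as the tissue of every sample, while 1 protocol field names the free wall of the left ventricle. Of the heart markers listed for this check none was found by name on the array, so heart muscle could not be looked for. Of 10 muscle markers listed 3 were measured, the regulators MYOD1, MYOG and MYF5. MYOD1 was above background on all 12 arrays, at 1.63 to 2.27 in the controls and -0.35 to 2.59 after cortisol. MYOG was so too, at 0.41 to 0.97 and -0.48 to 1.02. MYF5 was above background on 8 of the 12, at -4.4 to -3.4 in the controls and -5.1 to -4.3 after cortisol. Nothing in the labels says more about how the samples of a group were obtained, so p-values measure the spread between these samples. Signals are given as log2 of the scanner's processed signal minus the 75th percentile of that array, so 0 is the signal that 75% of the array's probes fall below. Levels of different probes are not compared with each other, because each binds with its own strength.

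Glycolysis cuts glucose into pyruvate and yields ATP without oxygen, and lactate dehydrogenase turns that pyruvate into lactate. In skeletal muscle the glucose phosphate also comes from stored glycogen, which PYGM opens, and fast-contracting fibres carry more of most glycolytic enzymes than slow ones, although hexokinase is higher in slow oxidative fibres. Glucocorticoids rise in the fetus before birth and take part in the maturation of its tissues.

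The probe letters show which of the paired probes are separate measurements. The ENO3 probes are the same stretch moved by 1 base and share 59 bases, in capitals, so they are close to a repeat of 1 measurement.

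ENO3 probe 1: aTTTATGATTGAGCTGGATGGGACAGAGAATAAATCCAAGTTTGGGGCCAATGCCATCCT
ENO3 probe 2: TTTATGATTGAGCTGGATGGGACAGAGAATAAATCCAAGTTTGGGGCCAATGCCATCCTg

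The PFKM probes likewise share 59 bases, and the 2 probes named GAPDH share 57. Both PFKM probes have a stop codon in every reading frame of the deposited strand, unlike the other enzyme probes. The place of the PFKM probes on the transcript was not tested. The ALDOA probes lie next to each other on the transcript and share only the 13 bases in capitals.

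ALDOA probe 1: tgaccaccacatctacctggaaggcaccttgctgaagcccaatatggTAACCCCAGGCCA
ALDOA probe 2: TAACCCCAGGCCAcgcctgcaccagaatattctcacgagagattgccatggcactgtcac

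The LDHA probes come from different stretches of the transcript and share no run over 5 bases, so they read their gene at separate places.

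LDHA probe 1: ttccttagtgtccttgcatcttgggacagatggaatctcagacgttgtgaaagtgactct
LDHA probe 2: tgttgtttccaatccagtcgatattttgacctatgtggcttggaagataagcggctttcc

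The array describes 3 further probes as glyceraldehyde-3-phosphate dehydrogenase without giving them the GAPDH name, and the rule does not take them in (called GAPDH-described here). Of these, 2 (probes 2 and 3, which share 59 bases) overlap GAPDH probe 1 on the opposite strand. GAPDH-described probe 1 shares no run over 6 bases with GAPDH probe 1 in either orientation, so its strand could not be compared with that of the named probes. Capitals mark the 23 bases that GAPDH-described probe 2 shares with the reverse complement of GAPDH probe 1. The overlap of the 2 runs on 39 bases, of which 36 are identical, whereas GAPDH probe 1 as deposited shares no run over 6 bases with it.

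GAPDH-described probe 2: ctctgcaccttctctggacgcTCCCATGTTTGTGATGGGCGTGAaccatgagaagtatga
GAPDH probe 1, reverse complement: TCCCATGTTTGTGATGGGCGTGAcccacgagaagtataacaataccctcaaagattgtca
GAPDH probe 1 as deposited: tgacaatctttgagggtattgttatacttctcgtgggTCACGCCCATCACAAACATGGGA

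The 2 sets are therefore given side by side throughout, and what the probes named GAPDH bind was not tested.

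No difference between cortisol and control was detected for any of the 8 enzymes. In limma's moderated test over all 10734 probes, 0 of the 13 enzyme probes passed an adjusted p of 0.05 (Benjamini-Hochberg over all tested probes), and the background was also 0% of all probes. At an unadjusted p under 0.05 the count was again 0 of 13, against 6.82% of all probes (732). The smallest p among the 13 was 0.341, for PFKL, with an adjusted p of 0.851. The mean was lower after cortisol for 11 of 13 probes and 7 of 8 genes, against 54.0% of all tested probes, but the differences were small: their median was -0.05 and they ran from -0.32 to 0.05 on the log2 scale, with a median of -0.02 over all tested probes. That count rests on single arrays. It was 12 of 13 without control array 3 (all probes: 54.8%) and 4 of 13 without cortisol array 1 (all probes: 52.3%). Without control arrays 1, 4 and 5 in turn it was 6, 7 and 7 of 13 (all probes: 52.4%, 52.7% and 54.4%). In no enzyme probe did all 6 cortisol arrays lie below, or all 6 above, every control; over all tested probes this was so for 0.317% and 0.0932%.

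**Figure D1:**
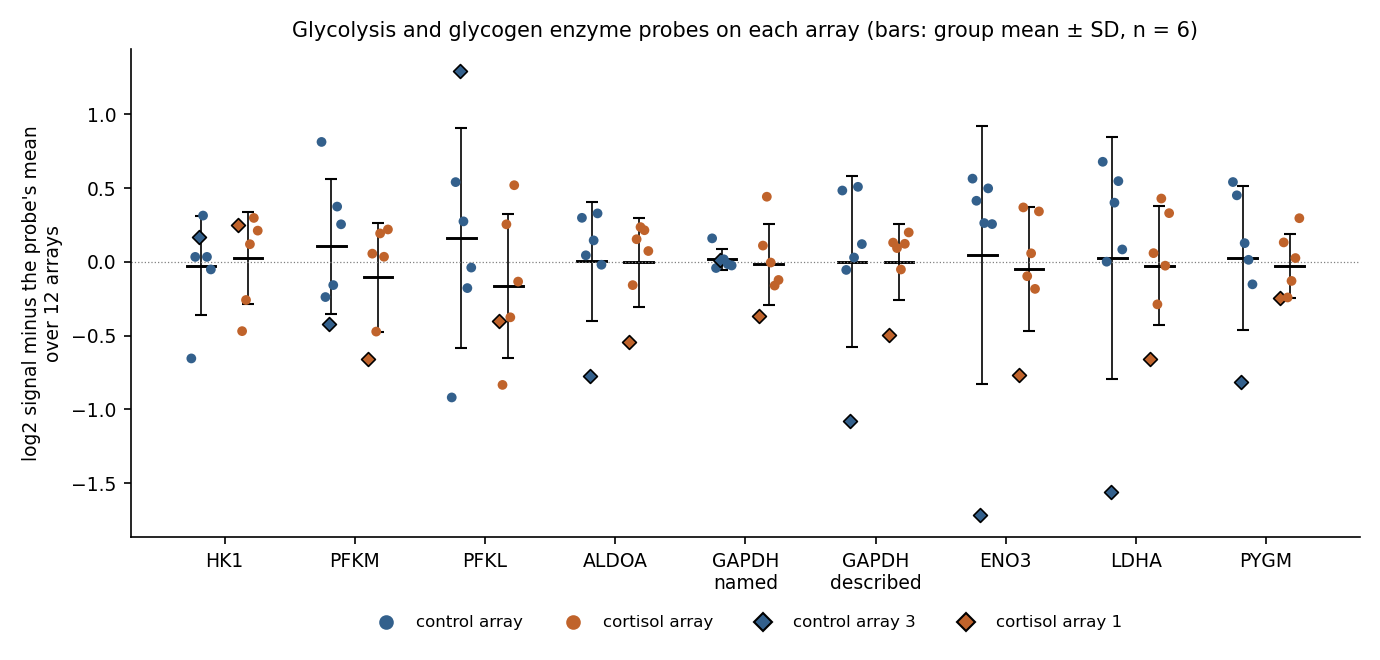
Signal of 1 probe per enzyme on each of the 12 arrays, as log2 signal minus that probe's own mean over 12 arrays (vertical axis, log2 units); points are arrays, bars the group mean ± SD (n = 6), and diamonds mark control array 3 and cortisol array 1. The groups overlap for every gene, and control array 3 lies lowest for ALDOA, the described GAPDH, ENO3, LDHA and PYGM but highest for PFKL.

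Hexokinase 1 traps glucose in the cell as glucose 6-phosphate and is the form found in most tissues. Its signal ran from -0.07 to 0.90 in the controls (median 0.62) and from 0.12 to 0.89 after cortisol (median 0.75). All 6 cortisol arrays lay within the control range, and control array 1 was the lowest of the 12. The difference, cortisol minus control, was 0.05 on the log2 scale (95% interval -0.36 to 0.46; limma adjusted p = 0.963), and it was the larger of the 2 upward ones among the 13 probes.

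Phosphofructokinase sets the pace of glycolysis, and PFKM is the form of skeletal muscle. PFKM probe 1 ran from 2.14 to 3.37 in the controls (median 2.60) and from 1.90 to 2.77 after cortisol (median 2.60). The medians were alike, control array 1 stood above all others, and cortisol arrays 1 and 3 fell below every control. The difference of means was -0.21 (95% interval -0.70 to 0.29; limma adjusted p = 0.873), and -0.31 without control array 3. PFKM probe 2, 1 base away, differed by -0.20. The size depended on single arrays: for probe 1 it was -0.07 without control array 1 and -0.10 without cortisol array 1. It was -0.59 among arrays of slide 1 and -0.02 among those of slide 2.

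PFKL, the form best known from liver, ran from -1.02 to 1.19 in the controls (median 0.01) and from -0.94 to 0.41 after cortisol (median -0.36). The controls alone spanned more than the cortisol arrays did, with control array 1 lowest and control array 3 highest of all 12. The difference was -0.32 (95% interval -1.03 to 0.38; limma adjusted p = 0.851). Without control array 3 it was -0.10.

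The balance of the 2 forms was taken on each array as the PFKM signal minus the PFKL signal, which cancels the scaling of that array. Its mean was 2.60 ± 1.19 in the controls and 2.72 ± 0.64 after cortisol (SD, n = 6 each). The controls ran from 0.95 on array 3 to 4.39 on array 1, and all 6 cortisol arrays, at 1.93 to 3.55, lay between them. The groups differed by 0.11 (95% interval -1.11 to 1.34; exact two-sided permutation test over 924 splits, p = 0.814, adjusted p = 0.814 over 3 balances). The sign was not stable: it was -0.22 without control array 3 (p = 0.671 by the same exact permutation test), -0.03 when control array 2 was dropped and -0.05 when cortisol array 2 was. The difference was -0.16 among arrays of slide 1 and 0.25 among those of slide 2. Of 9 such balances listed, 3 could be formed, and the other two set muscle phosphorylase against the liver and brain forms. PYGM minus PYGL differed by -0.24 (95% interval -0.85 to 0.36; exact permutation p = 0.390, adjusted 0.584) and PYGM minus PYGB by -0.32 (95% interval -0.97 to 0.34; exact permutation p = 0.327, adjusted 0.584). The former was -0.44 without control array 3 (exact permutation p = 0.0758, not adjusted). The latter was -0.10 without cortisol array 1, -1.20 among arrays of slide 1 and 0.12 among those of slide 2. With the normexp background correction PYGM minus PYGB was -0.01. The PYGB probe was dim, at -4.64 to -4.10 in the controls and -4.70 to -3.17 after cortisol. For PYGM minus PYGB, cortisol array 1 and 1 other cortisol array lay below every control. The smallest p that such a test can give here is 0.00216.

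**Figure D2:**
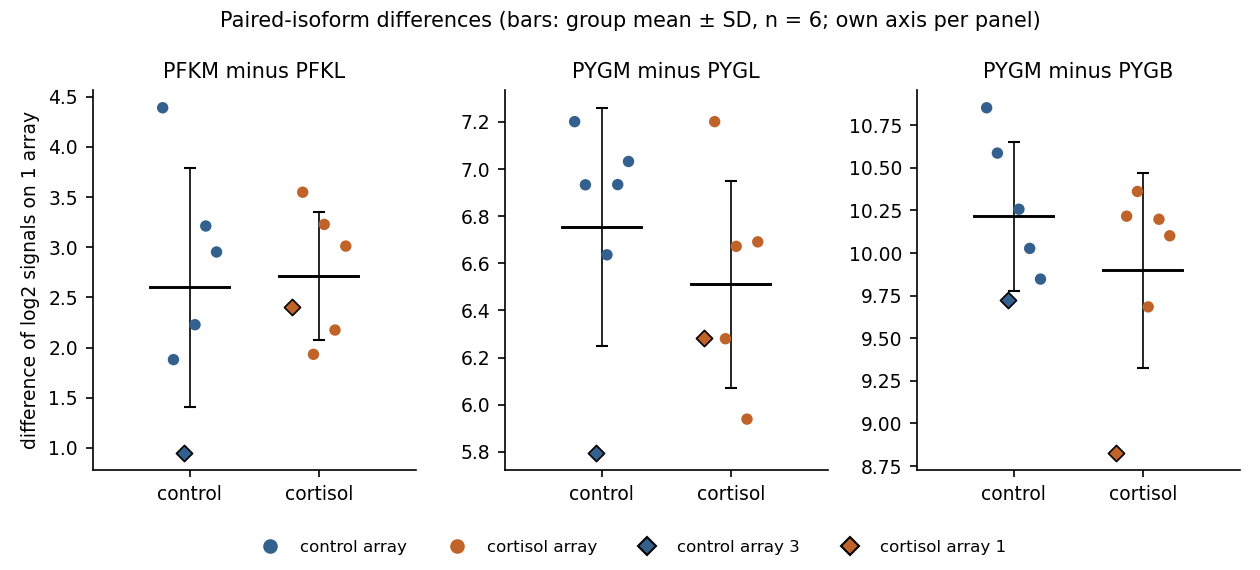
Difference of the log2 signals of 2 forms of an enzyme on the same array (vertical axis, log2 units, own scale for each panel), for control and cortisol arrays; points are arrays, bars the group mean ± SD (n = 6), diamonds control array 3 and cortisol array 1. The PFKM minus PFKL values of the cortisol arrays, 1.93 to 3.55, lie inside the control range of 0.95 to 4.39.

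Aldolase A splits fructose 1,6-bisphosphate into a pair of 3-carbon sugars. ALDOA probe 1 ran from 7.81 to 8.91 in the controls (median 8.68) and from 8.04 to 8.82 after cortisol (median 8.70). Control array 3 and cortisol array 1 were the lowest of the 12, and the remaining 10 arrays lay close together. The difference was -0.01 (95% interval -0.45 to 0.43; limma adjusted p = 0.996), which as a ratio is 0.995 with an interval of 0.734 to 1.35. ALDOA probe 2, from the neighbouring stretch, differed by 0.01, so the pair of probes disagreed in sign around no difference.

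GAPDH makes the first high-energy phosphate of the later steps of the pathway and is widely used as a reference gene. GAPDH-described probe 1 ran from 8.18 to 9.77 in the controls (median 9.34) and from 8.77 to 9.46 after cortisol (median 9.37). Here too control array 3 and then cortisol array 1 were lowest. Its difference was -0.002 (95% interval -0.53 to 0.52; limma adjusted p = 0.999), and -0.22 without control array 3. The other two described probes gave -0.01 and -0.02. GAPDH probe 1, which carries the name, ran from 1.07 to 1.27 in the controls (median 1.11) and from 0.75 to 1.56 after cortisol (median 1.05), with a difference of -0.03 (95% interval -0.34 to 0.27; limma adjusted p = 0.967). Its control arrays were packed within a narrow range, and control array 3 was not low among them, unlike on the described probes. On GAPDH probe 2, which shares 57 bases with probe 1, control array 3 was the lowest control, at 0.637 against 0.845 to 0.938. The group difference on probe 2 was -0.001. The spread of GAPDH probe 1 within groups was 0.20 (SD), less than that of all but 8.08% of the tested probes, whereas the described probe 1 had 0.45, above 65.9% of them. Over the 12 arrays the named and the described probe 1 did not follow each other closely (r = 0.28, permutation p = 0.175; rho = 0.18, permutation p = 0.548).

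ENO3 is the enolase of adult striated muscle and turns 2-phosphoglycerate into phosphoenolpyruvate. ENO3 probe 1 ran from 4.85 to 7.13 in the controls (median 6.90) and from 5.80 to 6.94 after cortisol (median 6.55). Control array 3 was 4.32-fold lower than the mean of the other controls, and cortisol array 1 was next lowest. The difference of means was -0.09 (95% interval -0.85 to 0.67; limma adjusted p = 0.965). Without control array 3 it was -0.44 (limma unadjusted p = 0.0445, adjusted p = 0.732), and for ENO3 probe 2 -0.43 (limma unadjusted p = 0.0358, adjusted p = 0.721). In that fit 6.70% of all probes had an unadjusted p under 0.05 and 0 passed the adjusted threshold. ENO3 was the gene of the 8 whose difference moved most with that array.

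LDHA, the lactate dehydrogenase of fast muscle, gave the same picture at both of its separate probes. Probe 1 ran from 5.54 to 7.77 in the controls (median 7.34) and from 6.43 to 7.52 after cortisol (median 7.11), and probe 2 from 4.52 to 6.89 (median 6.35) and from 5.45 to 6.66 (median 6.10). On both, control array 3 was lowest and cortisol array 1 next. The differences were -0.05 and -0.05 (95% intervals -0.77 to 0.67 and -0.81 to 0.70; limma adjusted p = 0.984 for each), and -0.37 and -0.38 without control array 3.

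PYGM frees glucose 1-phosphate from glycogen. Its single probe, spotted 5 times on each array, ran from 5.09 to 6.44 in the controls (median 5.97) and from 5.66 to 6.20 after cortisol (median 5.85). Control array 3 was the lowest, and every cortisol array lay within the control range. The difference was -0.05 (95% interval -0.51 to 0.41; limma adjusted p = 0.965) and -0.22 without control array 3.

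**Figure D3:**
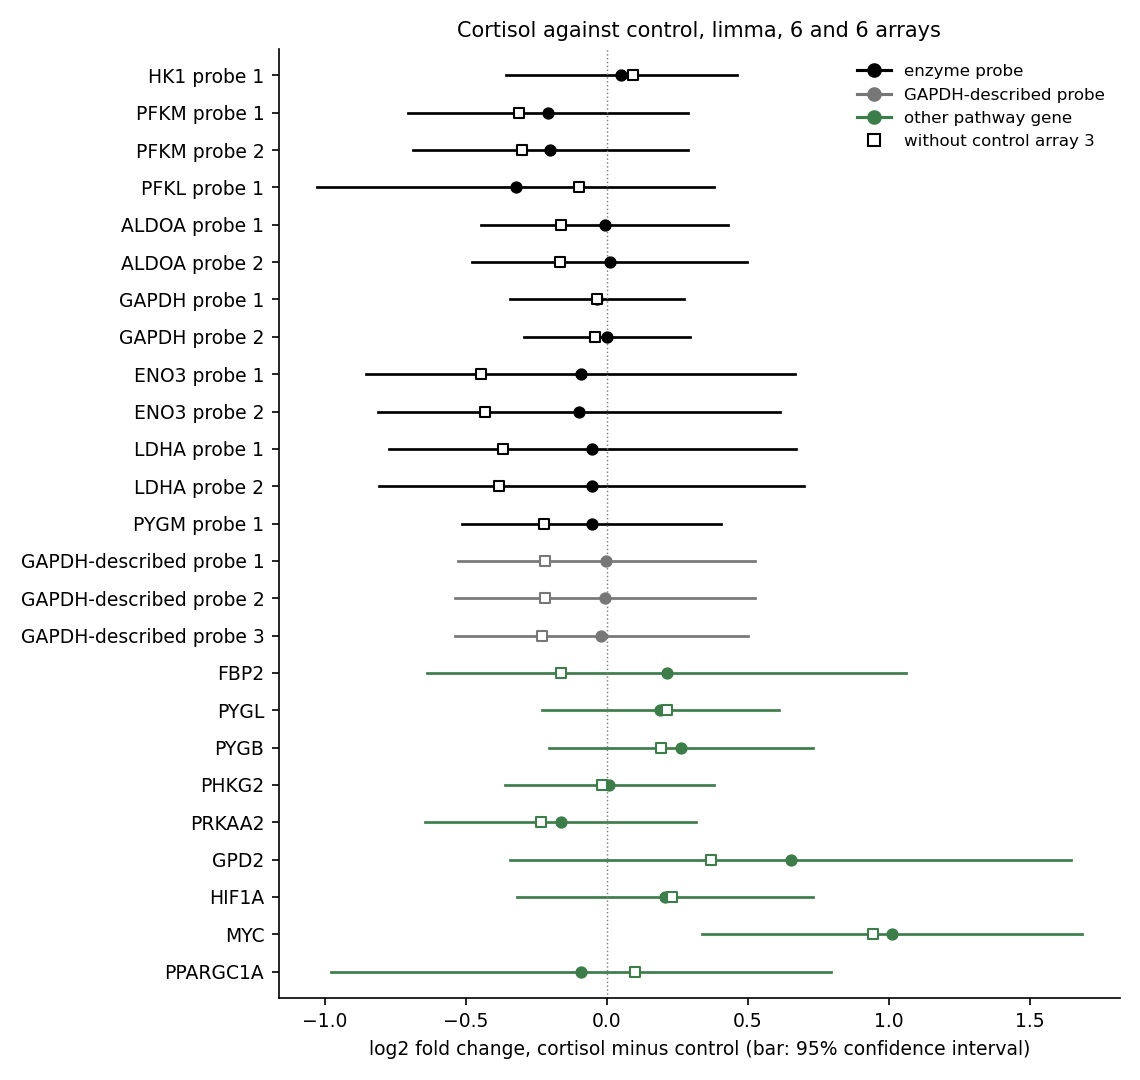
Log2 fold change, cortisol minus control (horizontal axis), of the 13 enzyme probes, the 3 GAPDH-described probes and 9 other genes of the pathway; filled points are limma estimates over 12 arrays, bars their 95% confidence intervals, open squares the estimate without control array 3. Every interval but that of MYC spans 0, and for ENO3 and LDHA the open squares lie well to the left of the filled points.

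Control array 3 was the lowest of the 12 for 7 of the 13 enzyme probes, against 10.4% of all probes measured on every array, and the lowest control for 10 of 13, against 24.3%. Cortisol array 1 was the lowest cortisol array for 11 of 13, against 20.6%. The spread within groups was 0.68 (SD) for ENO3 probe 1 and 0.65 for LDHA probe 1, which is above 88.4% and 86.1% of tested probes, while ALDOA probe 1, at 0.356, and HK1, at 0.324, were below the median of 0.365 over all probes. For each of the 13 probes the SD within groups exceeded the difference between the groups. On control array 3 the fast-fibre myosins were low as well. MYH1 had 0.50 there against 4.92 to 5.92 on the other controls, and MYH2 0.79 against 5.00 to 5.71. All 4 measured fast-fibre markers of 11 listed (MYH1, MYH2, TNNC2 and MYLPF) had their lowest value on that array, and their mean was 4.64 on it, 7.45 to 8.17 on the other controls and 7.38 to 8.32 after cortisol, with 7.38 on cortisol array 1. MYH7, the slow myosin, was at its highest there, 3.97, and so was myoglobin (MB), at 7.00. The mean of these 2 slow markers, of 9 listed, was 5.49 on control array 3, 3.33 to 4.08 on the other controls and 1.51 to 3.63 after cortisol. The part of fibre composition in the low enzyme values was not tested. In whole muscle, fewer cells of a type and less RNA per cell cannot be told apart.

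**Figure D4:**
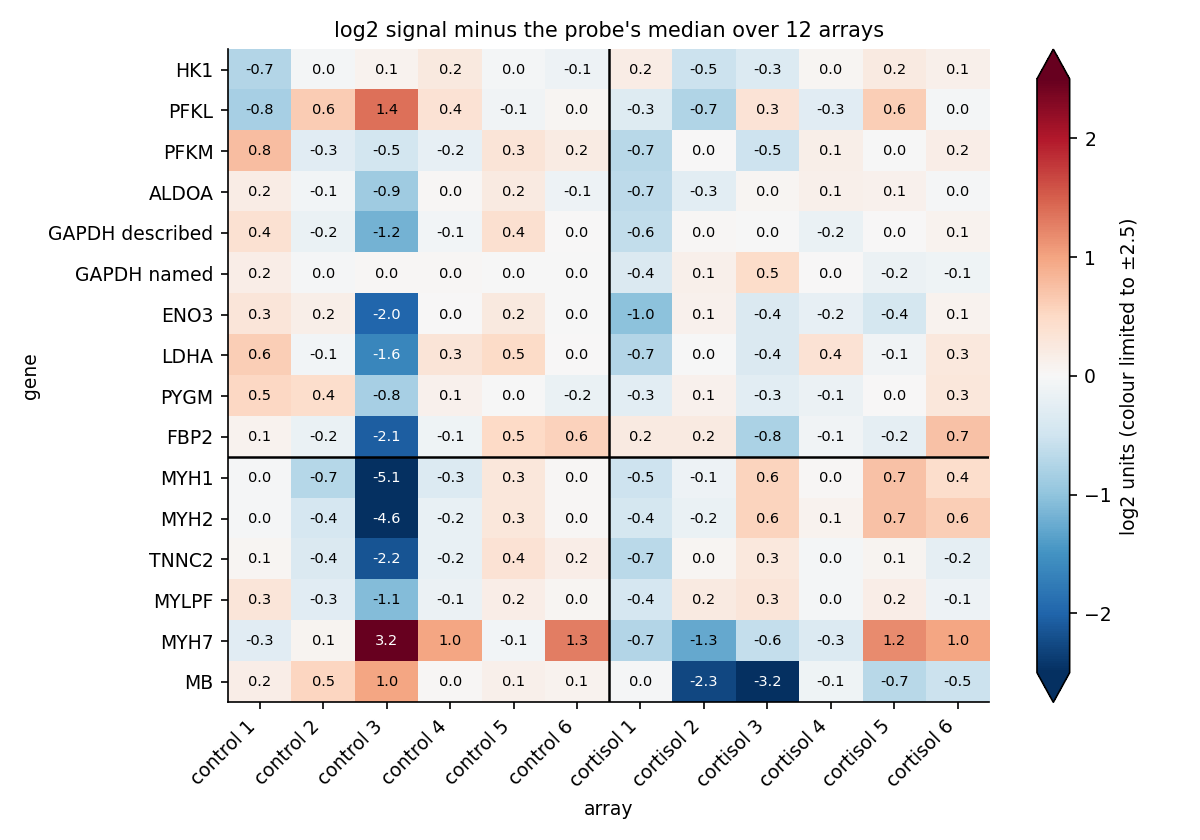
Log2 signal minus each probe's median over 12 arrays (colour and printed value, log2 units) for the enzymes and FBP2 (above the line) and for 4 fast-fibre and 2 slow-fibre genes (below it), with arrays as columns. The column of control array 3 is low for the fast myosins, ENO3, LDHA and FBP2 and high for PFKL and MYH7.

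Several of the enzymes also rose and fell together over the arrays. Signals were centred on their group means, so that any cortisol difference drops out, and 55 pairs were examined, of the 8 genes, the described GAPDH probe and the 2 fibre lists, by permutation of arrays within groups (100000 permutations, two-sided, Benjamini-Hochberg over the 55). All signals share the scaling of their array. ENO3 and LDHA had r = 0.94 (n = 12; permutation p = 0.00193, adjusted 0.0222) and rho = 0.79 (permutation p = 0.0038, adjusted 0.0429), and r fell to 0.59 when control array 3 and cortisol array 1 were left out. ALDOA and LDHA had r = 0.90 (permutation p = 0.00247, adjusted 0.0222) and rho = 0.75 (permutation p = 0.0117, adjusted 0.0678), with r = 0.52 without those arrays. ENO3 and PYGM had r = 0.86 (permutation p = 0.00163, adjusted 0.0222) and rho = 0.80 (permutation p = 0.00331, adjusted 0.0429), with r = 0.65 without them. Other pairs kept less. ALDOA and ENO3 had r = 0.84 (permutation p = 0.0197, adjusted 0.0739), but r = -0.115 without them. LDHA and PYGM had r = 0.80 (permutation p = 0.0155, adjusted 0.0709), but r = 0.38 without them. ALDOA and PYGM had r = 0.675 (permutation p = 0.0466, adjusted 0.111), but r = -0.01 without them. The correlations of these pairs thus rested in part or largely on 2 arrays. PFKM and LDHA kept more of theirs: r = 0.77 (permutation p = 0.00447, adjusted 0.0273), rho = 0.88 (permutation p = 0.00027, adjusted 0.0148) and r = 0.72 without the same arrays. The 2 phosphofructokinases had r = -0.66 (permutation p = 0.0339, adjusted 0.0932), rho = -0.58 (permutation p = 0.0639, adjusted 0.159) and r = -0.72 without the same arrays, so this negative relation did not pass the adjusted threshold. HK1 had r = -0.27 with LDHA (permutation p = 0.384; rho = -0.30, permutation p = 0.365), and GAPDH probe 1 had r = 0.13 (permutation p = 0.601; rho = 0.34, permutation p = 0.250). Against the mean of the fast-fibre markers, ALDOA had r = 0.88 (permutation p = 0.00235, adjusted 0.0222) and rho = 0.72 (permutation p = 0.00284, adjusted 0.0429), with r = 0.50 without the 2 arrays. The described GAPDH had r = 0.94 (permutation p = 0.00057, adjusted 0.0222) and rho = 0.66 (permutation p = 0.00977, adjusted 0.0672), with r = 0.71 without them. ENO3 had r = 0.91 with that mean (permutation p = 0.0239, adjusted 0.0777) and rho = 0.56 (permutation p = 0.0838, adjusted 0.192), but r = 0.17 without them. LDHA had r = 0.885 (permutation p = 0.0174, adjusted 0.0735), but r = 0.27 without them. PFKM had r = 0.57 (permutation p = 0.0914, adjusted 0.157), but r = 0.22 without them. PYGM had r = 0.72 (permutation p = 0.0968, adjusted 0.161), but r = -0.001 without control arrays 1 and 3. For PFKL r was -0.57 (permutation p = 0.189), for HK1 -0.27 (permutation p = 0.342) and for GAPDH probe 1 0.17 (permutation p = 0.260). HK1 had r = 0.72 with the mean of the slow-fibre markers (permutation p = 0.0202, adjusted 0.0739) and rho = 0.73 (permutation p = 0.0123, adjusted 0.0678), with r = 0.68 without control array 1 and cortisol array 2.

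For each enzyme the named genes with the most similar group-centred pattern were looked up among 596 genes, as a description without a test. For ALDOA these were MSTN, which encodes the muscle growth inhibitor myostatin (r = 0.97 over 12 arrays, 0.95 without control array 3), and the potassium channel gene KCNK3 (r = 0.93 and 0.85). KCNK3 was also among the closest to LDHA (r = 0.95 and 0.87) and to ENO3 (r = 0.93 and 0.78), beside the integrin gene ITGAL for LDHA (r = 0.91 and 0.89) and HACD1, an enzyme of long fatty acid synthesis, for ENO3 (r = 0.93 and 0.77). For the described GAPDH they were the fast-fibre genes TNNC2 (r = 0.94 and 0.83) and MYLPF (r = 0.94 and 0.85). PFKM was closest to the lipid droplet gene PLIN1 (r = 0.92 and 0.90) and to ITGAL (r = 0.82 and 0.79). HK1 was closest to the matrix genes TIMP1 (r = 0.88 and 0.89) and DCN (r = 0.77 in both), and PFKL to TIMP3 (r = 0.84 and 0.74) and BARX2 (r = 0.82 and 0.70). PYGM was closest to PGFS (r = 0.88 and 0.73) and to the prostaglandin receptor gene PTGER4 (r = 0.84 and 0.75). GAPDH probe 1 was closest to FGF10 (r = 0.79 and 0.84) and HIF1A (r = 0.78 in both).

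On the 2 slides the arrays formed 3 sets by slide and row. Each set held 2 arrays of either group, so cortisol could be compared within sets. The enzyme differences ran from -0.69 to 0.20 in the first set, which holds cortisol array 1, from -0.84 to 0.81 in the second, which holds control array 3, and from -0.30 to 0.30 in the third. For LDHA probe 1 they were -0.64, 0.65 and -0.16, and for ENO3 probe 1 -0.69, 0.71 and -0.30. No enzyme probe was lower in all 3 sets. Arrays were alike as a whole: the correlation between any 2 of them was 0.949 to 0.983, none held the same values as another, the 75th percentile lay between 187 and 447 intensity units, and 9958 to 11403 probes were above background. No enzyme probe was saturated.

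Of 60 other genes of glycolysis, glycogen and their regulation taken from the list, 10 were on the array by name and 9 were measured; PKLR, the liver pyruvate kinase, was too dim to test. None of the 9 passed the adjusted threshold. The mean was higher after cortisol for 7 and lower for 2, with a median difference of 0.21. The number lower was 1 without cortisol array 4 and 3 without control array 3. It was 4 with the normexp background correction and 4 on slide 1 alone. Over all tested probes 54.0% were lower, and the median was -0.02. MYC, a transcription factor that drives many glycolytic genes, was the only 1 of the 9 with an unadjusted limma p under 0.05, against 6.82% of all tested probes. It ran from 1.45 to 2.22 in the controls (median 1.80) and from 1.83 to 3.85 after cortisol (median 2.77). On 4 cortisol arrays it was above every control, and the difference was 1.01 (95% interval 0.34 to 1.68; limma unadjusted p = 0.00618, adjusted p = 0.693), or 0.94 without control array 3.

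Of the enzymes beside the main path, FBP2, the muscle fructose-bisphosphatase that runs the phosphofructokinase step backwards, had -0.20 on control array 3 and 1.69 to 2.44 on the other controls, and 1.08 to 2.60 after cortisol (difference 0.21, 95% interval -0.64 to 1.06; limma adjusted p = 0.935), and the difference was -0.16 without that array. GPD2, the mitochondrial glycerol phosphate dehydrogenase, differed by 0.65 (95% interval -0.34 to 1.65; limma adjusted p = 0.793) and was also lowest on control array 3. Its difference was 0.37 without control array 3, 0.37 without cortisol array 3 and 0.27 with arrays weighted by quality.

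The liver and brain glycogen phosphorylases PYGL and PYGB differed by 0.19 and 0.26, and PHKG2, a catalytic subunit of phosphorylase kinase, by 0.01. Among regulators, PRKAA2, a catalytic subunit of AMP-activated kinase, differed by -0.16, HIF1A, the oxygen-sensitive activator of glycolytic genes, by 0.21 and PPARGC1A, a coactivator of mitochondrial genes, by -0.09. The limma adjusted p of these 6 was 0.817 or more. The difference for PYGL was 0.06 without cortisol array 5, and without cortisol array 1 PYGB was 0.09 and PRKAA2 -0.04.

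Markers of other cells were set beside the enzymes. In mean log2 signal of the measured markers, controls and cortisol arrays ran from -2.18 to 0.58 and from -2.97 to 1.46 for red cells (2 of 5 listed), from -4.02 to 2.87 and from -3.59 to -1.28 for liver (5 of 6), from -3.04 to -2.59 and from -2.78 to -1.84 for leukocytes (3 of 6), and from -4.00 to -2.99 and from -3.45 to -2.21 for fat cells (3 of 5). For endothelium (3 of 5) they were -0.95 to -0.19 and -0.97 to -0.11, for fibroblasts and matrix (3 of 6) 1.42 to 2.32 and 1.12 to 2.54, and for nerve, by GFAP alone of 5, -1.03 to -0.01 and -1.43 to 0.01. The ranges of the groups overlapped for each of these lists. On control array 3 the fibroblast mean was 1.96 and the endothelial mean -0.83, within the range of the other controls. Cortisol array 1 had the highest leukocyte mean (-1.84) and the highest fat-cell mean (-2.21) of the 12 arrays. The latter rested on FABP4, at -0.97 there and -5.68 to -2.49 on the other cortisol arrays. PLIN1 had its lowest value of the 12 on that array (-1.57), and LEP had -4.08. Cortisol array 1 also had the lowest mean of the muscle list (-1.97, against -0.62 to -0.39 in the controls). Of that list 3 of 10 were measured, the regulators MYOD1, MYOG and MYF5. The 3 leukocyte markers were all higher in the mean after cortisol and none passed the adjusted threshold: FCER1G by 0.59 (95% interval 0.22 to 0.95; limma adjusted p = 0.693), ITGB2 by 0.62 (95% interval 0.12 to 1.11; limma adjusted p = 0.693) and CD14 by 0.27 (limma adjusted p = 0.831). Of the 3 measured fat-cell markers, FABP4 was higher in the mean after cortisol (1.65, limma adjusted p = 0.693). PLIN1 (-0.13) and LEP (-0.11) were lower. FABP4 exceeded the background in 2 of 6 controls and 4 of 6 arrays after cortisol. Within the muscle list of 10, MYF5, detected in 5 of 6 controls but in 3 of 6 after cortisol, differed by -0.60 (95% interval -1.03 to -0.18; limma adjusted p = 0.693), or -0.26 with the normexp background correction. In the slow-fibre list MB differed by -1.46 (95% interval -2.49 to -0.43; limma adjusted p = 0.693). For MB all 6 cortisol arrays lay below every control, as for 0.317% of all tested probes. The part of these markers in the enzyme values was not tested.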

How the data were processed

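The probes, gene lists and tests were chosen with earlier results of these data known. Per the labels, 500 ng of RNA was labelled with Cy3 for 1-colour Agilent arrays; the submitters' processing notes name Agilent Feature Extraction 10.1.1.1. The deposited scanner files hold intensity values (background-corrected processed signal, per the file headers) of 15744 spots, 15208 of them not controls, and other values that flag spots as outliers, saturated or well above background, per the file headers. A deposited table of log2 values, used as an alternative, ranks probes on each array as the median signal minus background does (Spearman 1); its column medians are 5.98 to 5.99 and the sources used here do not give its method.

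Outlier spots were left out (5 of the enzyme probes' spots over all arrays), log2 signals of a probe averaged and each array's 75th percentile of non-control probes subtracted. A probe was tested if 6 or more of the 12 arrays flagged it well above background. For a probe with several spots, a flag on any of its spots counted. Tests were by limma 3.58.1 in R 4.3.3 (lmFit, eBayes, two-sided, no covariate), checked on simulated data, with Benjamini-Hochberg adjustment at 0.05. Intervals are 95% confidence intervals. A gene with several probes is represented by the one of highest mean signal. Named are all enzyme probes, all measured genes of the pathway list, the 2 named genes most like each enzyme, and markers set beside a result. Of 15008 probes 1373 had a name, 18 of them given by hand after the array names were read. Same-numbered control and cortisol arrays deviated together at r = 0.21, 0.07, 0.12, 0.21, -0.11 and 0.25, so the shared replicate numbers were not taken as pairs. Same-numbered arrays also share slide and row, so agreement by number includes any agreement by slide and row. A few listed genes are not reported here. The number of arrays limits the precision.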

Additional observations from a re-analysis of the deposited data

Results flagged for a closer look

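In 80 groups of 6 arrays examined, 21 had a highest or lowest array far from the others by Dixon's 95% limit on the gap relative to the group's range; chance alone gives about 1 in 20 groups, and probes of a gene are not independent. Among the controls, array 3 stood below the others for ALDOA probe 1 (7.81, others 8.56 to 8.91) and probe 2 (6.91, others 7.80 to 8.23). It did so for ENO3 probe 1 (4.85, others 6.82 to 7.13) and probe 2 (4.93, others 6.72 to 7.18). The same held for LDHA probe 1 (5.54, others 7.10 to 7.77) and probe 2 (4.52, others 6.14 to 6.89). On the GAPDH-described probes 1, 2 and 3 it had 8.18, 7.61 and 7.59, and on GAPDH probe 2 it had 0.64 against 0.84 to 0.94. It was low as well for FBP2 (-0.20, others 1.69 to 2.44), MYH1 (0.50, others 4.92 to 5.92), MYH2 (0.79, others 5.00 to 5.71) and TNNC2 (8.44, others 10.23 to 10.97).

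Cortisol array 1 stood below the other cortisol arrays on GAPDH-described probes 1, 2 and 3, at 8.77, 8.12 and 8.10, and above them for PHKG2, at -1.24 against -2.22 to -1.86. Control array 1 was above the other controls on GAPDH probe 1, at 1.27 against 1.07 to 1.13. Among the leukocyte markers, control array 1 was above the other controls for CD14 (-2.498, others -3.65 to -3.33) and control array 4 for ITGB2 (-2.65, others -3.58 to -3.24).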

How the results depend on the processing

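No enzyme probe passed the adjusted threshold under any of 28 alternatives (lowest limma adjusted p 0.721), and over all tested probes the count past it was 0 in every one but slide 1 alone, where it was 1. The widest interval of the 13, that of ENO3 probe 1, ran from -0.85 to 0.67; the number of arrays limits this precision. Of the 13 enzyme probes, 3 kept their direction under these alternatives (both PFKM probes and PFKL), though not within each of the 3 array sets, where the PFKM probes were 0.15 and 0.16 in set 2 and PFKL 0.30 in set 3; the others changed sign. With the replicate number as a block the differences were the same by construction, PFKM minus PFKL was 0.11 (exact permutation p = 0.875) and 0 probes passed; 6 of 12 arrays correlated best with their own number in the other group, a hint from the data and not the design.

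Log2 differences with the opposite sign to the reported one were as follows. With the percentile over probes detected on all arrays they were 0.0037 for ALDOA probe 1, 0.01 for GAPDH probe 2, and 0.0095 and 0.0053 for GAPDH-described probes 1 and 2. With array weights they were -0.00046 for ALDOA probe 2 and -0.04 for PHKG2. With arrays centred on their median they were 0.014 for ALDOA probe 1, 0.02 for GAPDH probe 2, and 0.019, 0.015 and 0.0018 for the described probes. With the deposited log2 values they were 0.021 for ALDOA probe 1, 0.01 for GAPDH probe 2, 0.0074 and 0.019 for LDHA, 0.04 for PYGM, and 0.086, 0.011 and 0.012 for the described probes. With all probes of a gene averaged they were 0.0016 for ALDOA and 0.071 for PPARGC1A. With normexp they were 0.035 for ALDOA probe 1, 0.019 for GAPDH probe 2, 0.049, 0.015 and 0.017 for the described probes, -0.016 for PYGB and -0.024 for PHKG2. With quantile normalization they were 0.017 and -0.0038 for ALDOA, 0.007 for GAPDH probe 2, 0.022 and 0.045 for LDHA, 0.018 for PYGM and 0.027 for described probe 1.

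On slide 1 alone (2 arrays a group) they were -0.60 for ALDOA probe 2, -0.23 for PYGL, -0.20 for HIF1A, -0.072 for MYH2, -0.16 for TNNC2, -0.11 for MYLPF and -0.16 for PFKM minus PFKL. On slide 2 alone, which holds control array 3, they were -0.02 for HK1, 0.25 for ALDOA probe 1, 0.042 and 0.068 for GAPDH, 0.20 and 0.20 for ENO3, 0.24 and 0.27 for LDHA, 0.20 for PYGM, 0.20, 0.22 and 0.20 for the described probes, -0.14 for PHKG2, 0.32 for PPARGC1A and 0.12 for PYGM minus PYGB. The count of enzyme probes lower after cortisol, 11 of 13, was 7 with quantile normalization, 6 with the deposited values and 4 on slide 2; of genes, 7 of 8, it was 4, 4 and 3. Of the other pathway genes, 2 of 9, it was 4 with normexp and on slide 1, and 1 with all probes of a gene averaged.

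Leaving out 1 array at a time gave -0.075 to 0.15 for HK1, -0.16 to 0.10 and -0.17 to 0.14 for ALDOA, -0.13 to 0.04 and -0.09 to 0.052 for GAPDH, -0.44 to 0.051 and -0.43 to 0.02 for ENO3, -0.37 to 0.079 and -0.38 to 0.09 for LDHA, -0.22 to 0.048 for PYGM, and -0.22 to 0.10, -0.22 to 0.11 and -0.23 to 0.087 for the described probes. For the PFKM probes it gave -0.31 to -0.07 and -0.30 to -0.05, and -0.54 to -0.10 for PFKL (lowest without control array 1, nearest 0 without control array 3). It gave 0.06 to 0.30 for PYGL, 0.09 to 0.40 for PYGB, -0.32 to -0.04 for PRKAA2, 0.37 to 0.83 for GPD2, -0.44 to -0.13 for PYGM minus PYGL, -0.42 to -0.10 for PYGM minus PYGB, -0.16 to 0.37 for FBP2, -0.13 to 0.063 for PHKG2, -0.0028 to 0.34 for HIF1A, -0.39 to 0.10 for PPARGC1A, -0.29 to 0.013 for MYOG, -0.10 to 0.40 for TNNC2 and -0.22 to 0.47 for PFKM minus PFKL. The number lower ran from 4 to 12 of 13 probes, 3 to 8 of 8 genes and 1 to 3 of 9 other genes. The causes of these shifts were not tested.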
